A study of Mus musculus with 60 samples.

Results

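CXC chemokines are small secreted proteins that direct the movement of white blood cells and of neural precursors. Their genes and those of their receptors were followed here by RNA sequencing of mouse microglia, macrophages that live in the brain. The members were the 9 genes Cxcl1, Cxcl2, Cxcl9, Cxcl10, Cxcl12, Cxcl13, Cxcl16, Cxcr2 and Cxcr4, of 22869 genes in the table, named as a list and not chosen by a threshold. All 60 libraries came from C57BL/6N animals, and no other allele or genotype is given in the labels. The developmental libraries were 7 from embryonic day 18 (E18), 8 from postnatal day 4 (P4) and 20 from P14, all untreated, and 12 from P60 given saline. A further 13 libraries came from P60 given lipopolysaccharide (LPS), a molecule of the outer membrane of bacteria that is sensed by the receptor Tlr4. The sources used here do not give the dose, route or time of LPS. Sex by title was 4 males and 3 females at E18, 4 and 4 at P4, 10 and 10 at P14, 5 and 7 at P60 with saline, and 7 and 6 at P60 with LPS. Whether a library came from 1 animal or from several is not stated, so p-values measure only the spread between these libraries, which may be technical.

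A chemokine acts on a receptor that spans the membrane, or is taken up by an atypical receptor that does not signal through G proteins. Cxcl1 and Cxcl2 attract neutrophils through Cxcr2. Cxcl9 and Cxcl10 are induced by interferons and attract activated T cells through Cxcr3. Cxcl12, made by vessels, meninges and stromal cells, acts through Cxcr4 and is taken up by Ackr3. Cxcl13 guides B cells through Cxcr5, and Cxcl16 is made as a membrane protein that binds Cxcr6. Innate immune receptors for LPS act through the transcription factor NF-kB and through interferons, both of which are known to act on several of these genes.

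The upstream sequences of the 5 chemokine genes that moved most with LPS are shown because 4 of them rose and 1 fell in the same libraries. Each is the 250 bases before the annotated start in RefSeq for GRCm38.p6, written 5′ to 3′ on the gene's own strand. This is not the build of the counts, and none of the counts was placed by these coordinates. Capitals mark matches to 3 patterns on either strand, with overlapping matches merged. The NF-kB pattern is GGG, 2 free bases and TTTCC, and the interferon-stimulated response element (ISRE) pattern is GAAA, 2 free bases and GAAA. The wider NF-kB pattern, GGG, 3 free bases and TTCC, was added after the sequences were seen.
Cxcl1, chr5:90890995-90891244, plus strand: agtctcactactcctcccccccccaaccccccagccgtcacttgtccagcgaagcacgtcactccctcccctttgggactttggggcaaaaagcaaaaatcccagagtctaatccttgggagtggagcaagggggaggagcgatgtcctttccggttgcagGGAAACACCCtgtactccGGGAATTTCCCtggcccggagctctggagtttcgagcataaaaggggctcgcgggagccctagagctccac
Cxcl2, chr5:90903649-90903898, plus strand: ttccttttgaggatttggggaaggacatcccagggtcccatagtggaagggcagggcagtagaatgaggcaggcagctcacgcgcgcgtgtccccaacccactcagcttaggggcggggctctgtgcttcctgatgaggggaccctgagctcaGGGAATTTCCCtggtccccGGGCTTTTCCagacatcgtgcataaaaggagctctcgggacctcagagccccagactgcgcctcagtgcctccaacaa
Cxcl10, chr5:92348890-92349139, minus strand: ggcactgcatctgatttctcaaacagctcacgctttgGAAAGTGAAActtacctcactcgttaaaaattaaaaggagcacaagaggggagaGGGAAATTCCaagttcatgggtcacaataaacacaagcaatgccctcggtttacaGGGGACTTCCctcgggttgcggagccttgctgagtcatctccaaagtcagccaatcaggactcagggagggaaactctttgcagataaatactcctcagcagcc
Cxcl9, chr5:92328080-92328329, minus strand: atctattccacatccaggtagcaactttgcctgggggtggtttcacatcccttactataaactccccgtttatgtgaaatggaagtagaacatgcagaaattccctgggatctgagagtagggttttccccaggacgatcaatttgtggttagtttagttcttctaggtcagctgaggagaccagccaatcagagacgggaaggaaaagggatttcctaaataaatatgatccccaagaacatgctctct
Cxcl12, chr6:117168285-117168534, plus strand: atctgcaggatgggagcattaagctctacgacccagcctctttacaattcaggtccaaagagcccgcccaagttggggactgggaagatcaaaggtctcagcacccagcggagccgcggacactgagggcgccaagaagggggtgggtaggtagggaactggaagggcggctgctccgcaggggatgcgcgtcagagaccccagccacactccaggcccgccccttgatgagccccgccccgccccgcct

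In the Cxcl1 sequence the letters GGGAATTTCC stood 71 to 62 bases before the start, and GGAAACACCC, a match on the other strand, 89 to 80 bases before it. Cxcl2 held GGGAATTTCC at 97 to 88 and GGGCTTTTCC at 78 to 69 bases before the start. No other member with an upstream sequence matched the NF-kB pattern, which 1.41% of 32851 promoters of this length hold (464). Cxcl10 held GAAAGTGAAA at 213 to 204 bases before the start, which was the only ISRE match among the members, against 2.98% of all promoters. With the wider pattern, held by 4.65% of promoters, Cxcl10 also matched at 159 to 150 (GGGAAATTCC) and 104 to 95 (GGGGACTTCC). The sequences of Cxcl9 and Cxcl12 held none of these 3 patterns. TATAAA was found in Cxcl9, Cxcl13 and Cxcr4, against 12.4% of promoters. A match describes these letters only and does not show a bound site. Cxcl1 and Cxcl2 are next to each other on chromosome 5, with Cxcl3 and Cxcl15 beside them, and Cxcl9 and Cxcl10 lie on the same chromosome with Art3 between them. Cxcl16 was not matched in the sequence table.

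Libraries held 802016 to 3497454 counts (median 1907007.5), and those from LPS 804990 to 1401251. Levels are given in CPM, the counts of a gene scaled to a library total of 1000000. Log2 fold changes and their standard errors (SE) come from edgeR's quasi-likelihood test over all genes, and a change was called at a Benjamini-Hochberg adjusted p under 0.05. All 10 microglia markers, among them P2ry12, Tmem119 and Sall1, were detected at every stage. Their summed level had a median of 4358 CPM at E18, 13440 at P4, 23400 at P14 and 33140 at P60 with saline, and 27400 CPM with LPS. The transthyretin gene Ttr, a choroid plexus product, took over 10% of the counts in 3 libraries. The labels' dates never held libraries of more than 1 stage or treatment (0 of 17 dates), so date and stage or treatment cannot be told apart. Title and sex characteristic differed for 10 libraries, and the title was used. Among these, the library labelled M_E18 4 had 0 counts of 4 Y-linked genes and 132 CPM of Xist, whereas the other 29 titled male had 375 to 1775 Y-linked counts and up to 27.6 CPM of Xist. The libraries titled female had 1091 to 3848 CPM of Xist. Results against E18 were therefore also taken without M_E18 4, and the members called were the same. At P4 against E18 the log2 fold changes were then 2.14 for Cxcl10, 0.92 for Cxcl16 and 1.15 for Cxcr2 (adjusted p = 0.0191 at most). Without it, P60 with saline against E18 gave 1.71 for Cxcl10, 1.92 for Cxcl16, -1.14 for Cxcl1, -0.89 for Cxcl2 and -0.82 for Cxcr4 (adjusted p = 0.00507 at most).

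Per kilobase of transcript, the most abundant member was Cxcl2 at E18, with a median of 48.7 CPM per kb, and Cxcl10 at every later stage, with 113 at P4, 71.3 at P14, 70.7 at P60 with saline and 897.7 CPM per kb at P60 with LPS. At E18 the order after Cxcl2 was Cxcl1, Cxcr4, Cxcl10, Cxcl16, Cxcl12 and Cxcr2, from 35.4 down to 1.96 CPM per kb. Neighbours in this order overlapped between libraries except Cxcl10 and Cxcl16. At P60 with saline the order was Cxcl10, Cxcl16, Cxcl2, Cxcr4, Cxcl1, Cxcl12 and Cxcr2, from 70.7 down to 0.565 CPM per kb, and of these neighbours Cxcl12 and Cxcr2 did not overlap. Cxcr4 and Cxcl1 there had medians of 8.81 and 8.73 CPM per kb. At P60 with LPS Cxcl10 was followed by Cxcl1 at 204.6, Cxcl2 at 114.8, Cxcl16 at 59.96, Cxcl9 at 16.9, Cxcr2 at 5.43, Cxcr4 at 4.91 and Cxcl12 at 1.273 CPM per kb. Among these neighbours only Cxcl16 and Cxcl9 did not overlap between libraries. Cxcl13 had a median of 0 at every stage.

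**Figure D1:**
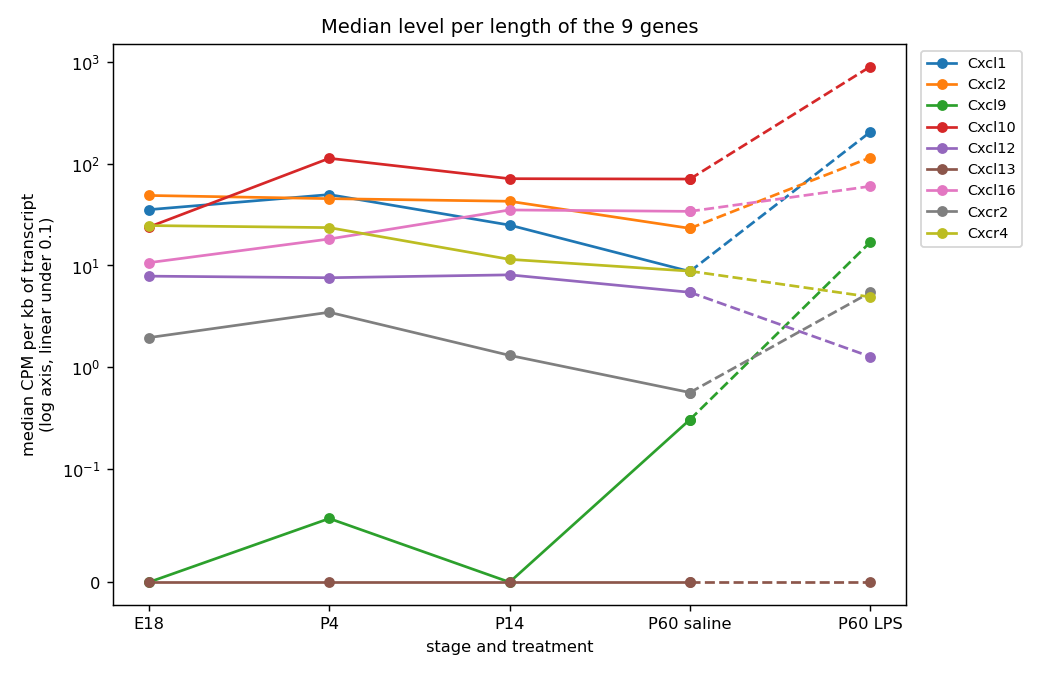
Median level per kilobase of transcript of the 9 genes (y axis, CPM per kb, logarithmic above 0.1) at E18, P4, P14, P60 with saline and P60 with LPS (x axis), with 1 line per gene and the step to LPS dashed. Cxcl10 is the highest from P4 on, Cxcl16 climbs to 35.1 at P14, and with LPS Cxcl12 is at 1.273 CPM per kb while Cxcl9 is at 16.9.

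The neutrophil attractant Cxcl1 was lowest in the saline adult and highest with LPS. Its level ran from 16.7 through a median of 33.7 to 55.1 CPM at E18, from 16.6 through 47.4 to 88.4 CPM at P4, and from 13.7 through 23.8 to 57.1 CPM at P14. At P60 with saline it ran from 2.95 through 8.32 to 43.2 CPM, and 11 of these 12 libraries lay below every P14 library. The remaining library was M_P60_Sal 1 at 43.2 CPM. Cxcl1 was lower at P14 than at P4 by a log2 fold change of -0.72 ± 0.28 (SE, adjusted p = 0.034) and lower at P60 with saline than at P14 by -1.24 ± 0.29 (adjusted p = 0.000592). P4 against E18 gave 0.75 ± 0.36 (adjusted p = 0.0781). Without M_P60_Sal 1 the fold at P60 with saline was -1.81 against P14 and -1.78 against E18. The P60 saline libraries differ from the earlier, untreated ones in saline as well as in age, which cannot be told apart. The call at P14 against P4 was lost when M_P4 1, M_P4 2 or F_P4 1 was left out (adjusted p = 0.0649, 0.115 and 0.149). It was also lost with the replicate number as a block (-0.29, adjusted p = 0.504). P4 against E18 passed without M_P4 4 (0.90, adjusted p = 0.0343) or without M_P60_Sal 1 (0.75, adjusted p = 0.0323).

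With LPS, Cxcl1 ran from 108.2 through a median of 195.0 to 442.0 CPM, against 2.95, 8.32 and 43.2 CPM with saline. All 13 LPS libraries lay above all 12 saline libraries, and the mean level was 20.8 times as high. The fold change on the log2 scale was 4.43 ± 0.37 (adjusted p = 4.69e-10), and 5.00 without M_P60_Sal 1.

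Cxcl2, which shares the receptor of Cxcl1, had similar medians up to P14 and was lower in the saline adult, where age and saline cannot be told apart. It ran from 32.8 through a median of 54.1 to 137.1 CPM at E18, from 40.0 through 50.3 to 81.5 CPM at P4 and from 33.2 through 47.4 to 90.4 CPM at P14. At P60 with saline it ran from 6.73 through 25.7 to 53.7 CPM, with 8 of 12 libraries below every P14 library. The log2 fold change was -0.13 ± 0.29 for P4 against E18 (adjusted p = 0.737), 0.07 ± 0.23 for P14 against P4 (adjusted p = 0.839) and -0.80 ± 0.22 for P60 with saline against P14 (adjusted p = 0.00286). With LPS it ran from 62.7 through 127.4 to 283.9 CPM, so that each LPS library lay above each saline library. The log2 fold change with LPS was 2.31 ± 0.29 (adjusted p = 5.32e-07) and the mean was 4.87 times as high.

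Cxcr2, the receptor of both and a gene of neutrophils, was the member with the lowest counts that could be tested throughout. It ran from 0 through a median of 5.96 to 8.20 CPM at E18, from 6.23 through 10.6 to 21.4 CPM at P4, and from 0 through 3.99 to 7.65 CPM at P14. At P60 with saline it ran from 0 through 1.72 to 6.71 CPM, on 63 counts in all. Cxcr2 rose at P4 against E18 (1.36 ± 0.43, adjusted p = 0.00754), and fell at P14 against P4 (-1.32 ± 0.33, adjusted p = 0.00124), where 17 of 20 P14 libraries lay below every P4 library. P60 with saline against P14 gave -0.62 ± 0.37 (adjusted p = 0.169). With LPS it ran from 3.00 through 16.6 to 49.0 CPM, on 237 counts, and 10 of 13 LPS libraries lay above every saline library. LPS against saline gave 2.67 ± 0.40 (adjusted p = 1.21e-05). In this fit Cxcr2 passed the filter on low counts through the LPS group, in which it is high, so the filter favoured a rise.

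Neutrophil markers moved in the comparisons in which Cxcr2 was called, and also in others in which it was not. Of 12 markers 10 are in the table. The summed level of these 10 ran from 917 to 6666 CPM with LPS, against 419.2 to 923.8 CPM with saline, and 7 of 8 tested rose (S100a9 by 3.28 ± 0.43, Mmp8 by 4.41 ± 0.53), with Elane at 3 counts or fewer in the LPS libraries. At P4 the sum ran from 471.7 to 8842 CPM, against 259.9 to 1619 CPM at E18, and 8 of 10 tested rose. At P14 the sum ran from 437.1 to 886.9 CPM, and against P4 8 of 10 tested fell and 1 rose, the receptor gene Csf3r, which microglia also express. At P60 with saline 5 of 10 tested fell and 1 rose against P14, and likewise against E18. Cxcr2 was called in neither (adjusted p = 0.169 and 0.246). Of all genes 10.5% rose with LPS, 25.5% rose at P4 against E18, and 20.8% fell and 20.6% rose at P14 against P4. At P60 with saline 25.7% of all genes fell and 18.5% rose against P14, and 34.8% fell and 31.4% rose against E18. A marker that passed the filter on low counts through the LPS group, as Cxcr2 did, was favoured to rise with LPS. Library by library the sums and Cxcr2 did not always go together. The P4 libraries F_P4 2 and M_P4 2 had the sums 482.5 and 471.7 CPM with 21.4 and 13.7 CPM of Cxcr2, while M_P4 1 had a sum of 4155 CPM with 7.42 CPM of Cxcr2. With LPS the highest Cxcr2 levels, 49.0 and 41.6 CPM, were in the libraries with the highest sums, 6666 and 5923 CPM. In bulk libraries a change in the number of cells of a type and a change in RNA per cell cannot be told apart, and the part of neutrophils in these results was not tested.

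Monocyte markers also moved with LPS: 7 of 8 rose, none fell, and their sum ran from 393.8 to 1713 CPM, against 144.6 to 568.6 CPM with saline. Of all genes 10.5% rose with LPS, and a marker that passed the filter on low counts through the LPS group was favoured to rise. None of the 8 monocyte markers was at 0 in any stage. Across development 5 of 8 rose and none fell at P4 against E18, where the sum ran from 843.1 to 2372 CPM at P4, against 216.2 to 1624 CPM at E18. At P14 against P4 6 of 8 fell and none rose, and the median sum was 1046 CPM at P14, against 1823 CPM at P4. Neuron markers fell in 6 of 6 tested at P4 against E18, with a sum of 32.5 to 171.2 CPM at P4, against 598.2 to 2653 CPM at E18. Astrocyte markers fell in 8 of 8 at P14 against P4, with a sum of 118.6 to 1266 CPM at P14, against 996.7 to 2074 CPM at P4. Of all genes 25.5% rose and 22.7% fell at P4 against E18, and 20.6% rose and 20.8% fell at P14 against P4. The part of monocytes, neurons and astrocytes in the members' changes was not tested.

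**Figure D2:**
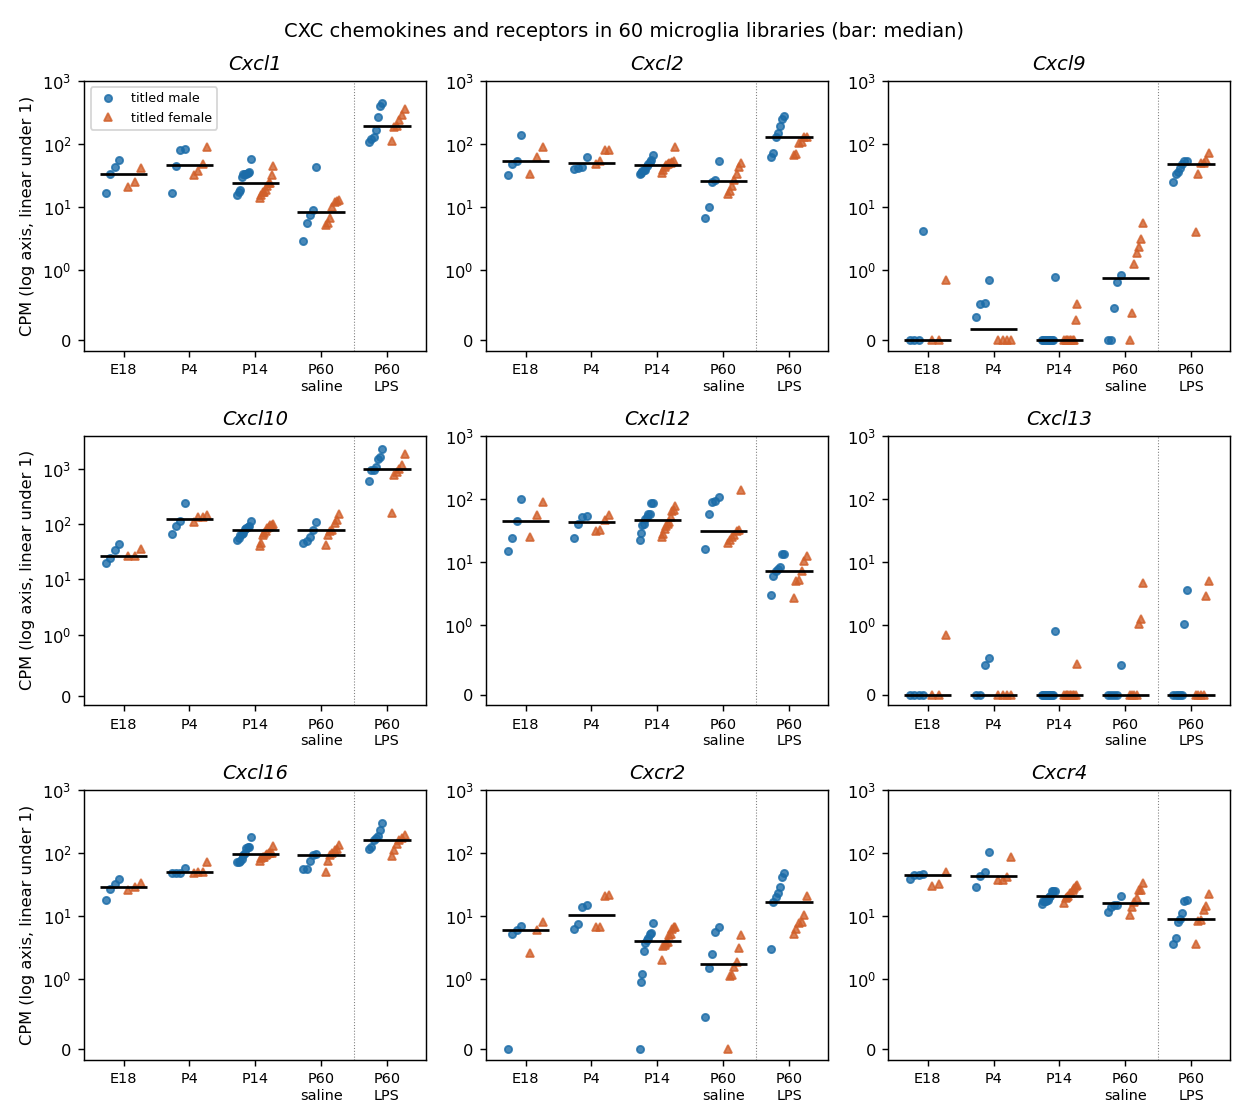
Level of each of the 9 genes (y axis, CPM, logarithmic above 1 and linear below) in each of the 60 libraries by stage and treatment (x axis), with circles for libraries titled male, triangles for libraries titled female and a bar at the median. With LPS all 13 libraries lie above all 12 saline libraries for Cxcl1, Cxcl2 and Cxcl10 and below them for Cxcl12, and Cxcl13 has a median of 0 throughout.

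Cxcl10, an interferon-induced attractant of T cells, rose early and again with LPS. It ran from 19.7 through a median of 26.2 to 43.2 CPM at E18 and from 66.7 through 123.6 to 240.1 CPM at P4. Every P4 library lay above every E18 library, and the log2 fold change was 2.236 ± 0.28 (adjusted p = 1.09e-08), or 2.14 without M_E18 4. It then ran from 39.7 through 78.0 to 113.1 CPM at P14 and from 41.7 through 77.3 to 149.1 CPM at P60 with saline. P14 against P4 gave -0.48 ± 0.20, just outside the threshold (adjusted p = 0.0504). This fall passed in 5 of 7 other settings and with 17 of 27 single libraries left out, and without M_P4 4, the highest library, it was -0.20 (adjusted p = 0.425). P60 with saline, which differs from P14 in the saline as well as in age, gave 0.02 ± 0.18 against P14 (adjusted p = 0.933), and against E18 1.78 ± 0.26 (adjusted p = 7.38e-08). With LPS Cxcl10 ran from 161.4 through 982.1 to 2313 CPM, again without overlap with saline, and the log2 fold change was 3.92 ± 0.31 (adjusted p = 1.94e-10).

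Cxcl9, induced mainly by interferon gamma, was close to undetected before LPS. It had 9 counts in 7 libraries at E18, 5 in 8 at P4, 3 in 20 at P14 and 24 in 12 at P60 with saline, where 3 libraries had none and the highest had 5.69 CPM. With LPS it ran from 4.111 through a median of 48.9 to 72.1 CPM on 598 counts. The lowest LPS library was F_P60_LPS 3, and the other 12 lay above every saline library. This gave a log2 fold change of 5.46 ± 0.41 (adjusted p = 6.55e-11). Cxcl9 passed the filter on low counts only in the LPS comparison, through the group in which it is high, and was not tested across development.

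F_P60_LPS 3 was also the lowest LPS library for Cxcl10, at 161.4 CPM against 601.6 CPM for the lowest titled male. Its Cxcl1 was 111.0 CPM, within the range of the others, and its Cxcr4, at 22.6 CPM, was the highest with LPS. Without it the log2 fold changes with LPS were 5.60 for Cxcl9, 4.05 for Cxcl10 and 4.54 for Cxcl1.

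Of the 20 genes of the NF-kB route, 18 rose and none fell at P4 against E18, where 25.5% of all genes rose. With LPS 11 rose and none fell, where 10.5% of all genes rose. At P14 against P4 11 rose, Relb by 1.21 ± 0.22 among them, and none fell, where 20.6% of all genes rose. Cxcl1 fell at that step and Cxcl2 was not called, and neither was called at P4 against E18. In P60 with saline against P14 4 of the 20 rose and 8 fell, where 18.5% of all genes rose and 25.7% fell. With LPS the co-receptor gene Cd14 rose by 1.76 ± 0.22 and the inhibitor gene Nfkbia by 0.96 ± 0.15. At P60 with saline against P14, where Cxcl1 and Cxcl2 fell, Nfkb2 fell by 1.88 ± 0.25 and Relb by 1.77 ± 0.20 on the log2 scale, while Tlr4, the LPS receptor gene, rose by 0.81 ± 0.13.

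Cxcl12, which keeps blood progenitors in place and guides migrating neurons, was the member that fell with LPS. Before LPS it showed no tested change with age. It ran from 14.6 through a median of 44.2 to 96.8 CPM at E18, from 23.4 through 42.7 to 54.0 CPM at P4, from 21.7 through 45.5 to 86.0 CPM at P14 and from 16.1 through 30.7 to 135.2 CPM at P60 with saline. Its 3 stepwise log2 fold changes were -0.16 ± 0.34, 0.51 ± 0.29 and 0.15 ± 0.25 (adjusted p = 0.725, 0.153 and 0.652). P60 with saline against E18 gave 0.49 ± 0.32 (adjusted p = 0.176), and 0.77 without M_E18 2 (adjusted p = 0.0404). With LPS it ran from 2.61 through 7.16 to 13.3 CPM, and all 13 LPS libraries lay below all 12 saline libraries. The log2 fold change was -2.71 ± 0.34 (adjusted p = 6.93e-07), which put it in the lowest 0.0569% of the genes tested.

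Endothelial markers moved with LPS as well. The summed level of 10 markers ran from 531.8 to 1575 CPM with LPS, against 660 to 2708 CPM with saline, with none at 0. With the sexes averaged 5 markers were lower (Cldn5 by -3.14 ± 0.35, Tek by -1.61 ± 0.23) and 1 was higher. Of all genes 3.95% were lower and 10.5% higher. In males 7 of 10 were lower and none higher (median log2 fold change -1.10), and in females none was lower and 2 were higher, Cdh5 by 1.49 ± 0.25 and Tie1 by 0.91 ± 0.27 (median -0.07). Of all genes 19.5% passed in males and 5.06% in females. The difference between the sexes passed for 2 of 10 markers, Cldn5 and Tie1 (adjusted p = 0.0344 for each). No gene passed for this difference with sex by the characteristic, or without the saline libraries dated 27 March or 31 March. Cxcl12 was lower in both sexes, by -2.99 ± 0.47 in males (adjusted p = 3.62e-05) and -2.44 ± 0.49 in females (adjusted p = 0.00164). Among saline libraries, F_P60_Sal 7 had 135.2 CPM of Cxcl12 with a sum of 2708 CPM, and M_P60_Sal 5 had 105.2 with a sum of 2034 CPM. The part of endothelial RNA in the lower level of Cxcl12 was not tested.

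**Figure D3:**
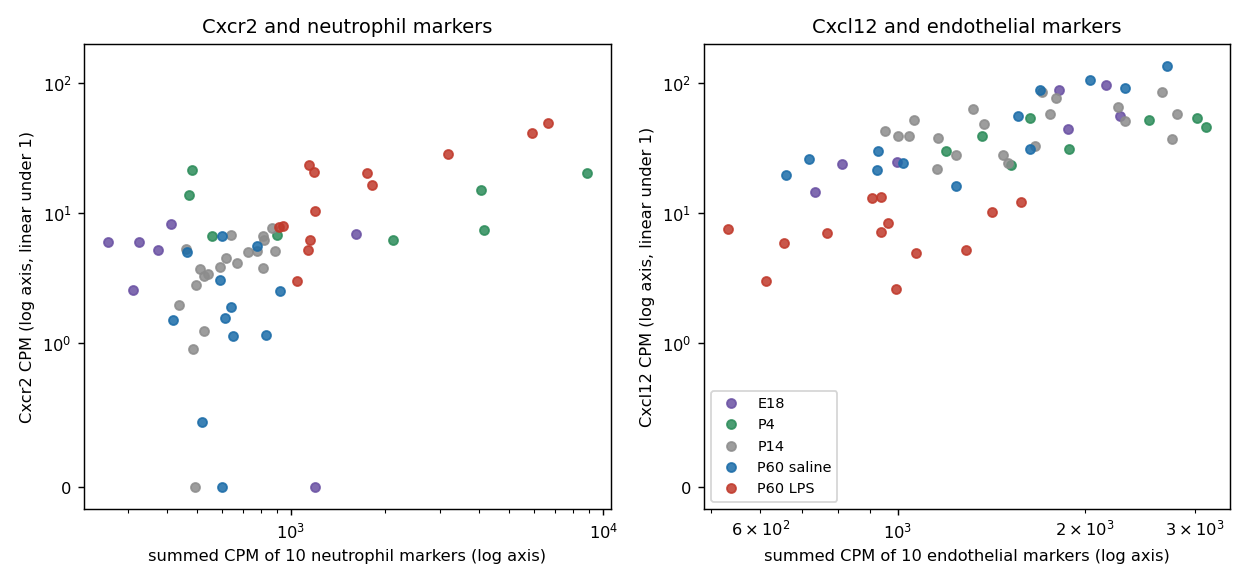
Cxcr2 against the summed level of 10 neutrophil markers (left) and Cxcl12 against the summed level of 10 endothelial markers (right), all in CPM on logarithmic axes that turn linear under 1 on the y axis, with 1 point per library coloured by stage and treatment. The LPS libraries with sums of 5923 and 6666 CPM have the highest Cxcr2, and all LPS libraries have at most 13.3 CPM of Cxcl12 at sums that overlap those of the saline libraries.

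Cxcl12 has 3 rows in the table, for transcripts of 5627, 3132 and 1878 bases, of which the longest is the marked one used above. All 3 were lower with LPS, with medians of 7.16, 4.67 and 1.24 CPM, against 30.7, 17.6 and 7.86 CPM with saline. The share of the 3 rows' counts that fell on the shortest row was 33.8% at E18, 26.5% at P4, 12.7% at P14 and 9.15% at P60 with saline (medians). It averaged 10.3% ± 5.21 (SD, n = 12) at P60 with saline and 34.6% ± 12.3 (SD, n = 7) at E18, a difference of -24.3 percentage points (exact permutation test, two-sided, p = 3.97e-05), and the libraries of both stages ran from 2.94% to 18.2% and from 22.3% to 57.7%. The comparison was chosen after these values were seen. The sources used here do not say how reads shared by the 3 transcripts were assigned, and with LPS only 204 counts fell on the 3 rows.

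Cxcr4, the signalling receptor of Cxcl12, was lower at P14 than at P4. It ran from 30.1 through a median of 44.6 to 49.7 CPM at E18, from 29.1 through 42.5 to 102.8 CPM at P4, from 15.3 through 20.7 to 31.2 CPM at P14 and from 10.2 through 15.9 to 33.6 CPM at P60 with saline. The 2 P4 libraries dated 2 April, M_P4 4 and F_P4 4, had 102.8 and 86.0 CPM, and the other 6 had at most 49.8 CPM. P14 against P4 gave -0.996 ± 0.18 (adjusted p = 1.17e-05), with 18 of 20 P14 libraries below every P4 library, and P60 with saline against E18 gave -0.85 ± 0.21 (adjusted p = 0.000494). P4 against E18 gave 0.47 ± 0.22 (adjusted p = 0.0762) and P60 with saline against P14 -0.33 ± 0.17 (adjusted p = 0.119). With LPS Cxcr4 ran from 3.55 through 8.87 to 22.6 CPM and overlapped with saline. Its value of -0.63 ± 0.26 did not pass (adjusted p = 0.106), and without F_P60_LPS 3 it was -0.75 (adjusted p = 0.0495).

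Cxcl16, a membrane-bound chemokine and scavenger receptor for oxidised lipids, rose at each early step. It ran from 17.8 through a median of 28.8 to 39.1 CPM at E18, from 47.9 through 49.2 to 70.9 CPM at P4, from 72.8 through 94.8 to 176.7 CPM at P14 and from 50 through 91.8 to 132.5 CPM at P60 with saline. No P4 library overlapped with E18, and no P14 library overlapped with P4. The log2 fold change was 0.93 ± 0.22 for P4 against E18 (adjusted p = 0.000534), 1.23 ± 0.18 for P14 against P4 (adjusted p = 3.87e-07) and -0.24 ± 0.15 for P60 with saline against P14 (adjusted p = 0.191). All 10 microglia markers also rose at P4 against E18 and at P14 against P4 (median log2 fold change 1.63 and 1.08). Of all genes 25.5% and 20.6% rose at these steps. The part of microglial content in the rise of Cxcl16 was not tested. With LPS Cxcl16 ran from 89.4 through 161.8 to 301.5 CPM, and 9 of 13 LPS libraries lay above every saline library. LPS against saline gave 1.013 ± 0.17 (adjusted p = 5.96e-05).

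Cxcl13, the B cell attractant, stayed near the limit of detection. It had 2 counts at E18, 2 at P4, 2 at P14, 7 at P60 with saline and 12 at P60 with LPS, and 9 of 13 LPS libraries and 8 of 12 saline libraries had none. Its highest level was 4.97 CPM, in F_P60_LPS 2, and it was tested in no comparison. A group with a count of 0 would allow up to 0.219 CPM over the LPS libraries and 0.133 CPM over the saline libraries, for counting error only.

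Counted over the members, 3 of the 7 tested passed at P4 against E18, all upward (Cxcl10, Cxcl16 and Cxcr2), where 48.3% of all 13853 genes tested passed, 25.5% upward and 22.7% downward. At P14 against P4 4 of 7 passed, Cxcl16 upward and Cxcl1, Cxcr2 and Cxcr4 downward, where 41.5% of genes passed, 20.6% upward and 20.8% downward. At P60 with saline against P14 2 of 7 passed, Cxcl1 and Cxcl2, both downward, where 44.1% of genes passed, 18.5% upward and 25.7% downward. Over the whole span, P60 with saline against E18, 5 of 7 passed, Cxcl10 and Cxcl16 upward and Cxcl1, Cxcl2 and Cxcr4 downward, where 66.3% of genes passed, 31.4% upward and 34.8% downward. These 4 shares of 7 genes are close to those of all genes. With LPS 7 of the 8 tested passed, 6 upward and 1 downward, where 14.4% of 10538 genes passed, 10.5% upward and 3.95% downward. The median log2 fold change of the 8 was 2.49, against -0.07 over all genes. Cxcl9 entered through the LPS group and had to differ. Without it 6 of 7 passed, 5 upward and 1 downward, with a median of 2.31. Cxcr2, with at most 6.71 CPM in saline libraries, also entered through the LPS group and is still among these. Under RLE scaling the median log2 fold change over all genes was -0.10 in place of 0.03 at P4 against E18, -0.12 in place of -0.01 at P14 against P4 and -0.26 in place of -0.08 at P60 with saline against E18. No called member changed direction under it. How many of all genes had groups without overlap was not counted, so a lack of overlap describes the member alone.

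The LPS libraries carried 3 dates, 8, 9 and 10 April, and the medians of several members differed between them, which was not tested. In the 4 libraries dated 9 April the median of Cxcl1 was 344.8 CPM, against 129.7 CPM in the 5 dated 8 April and 181.2 CPM in the 4 dated 10 April. Cxcl2 had medians of 70.9, 220.8 and 129.8 CPM on 8, 9 and 10 April, Cxcl16 114.2, 207.3 and 173.5 CPM, and Cxcr2 16.6, 35.1 and 7.91 CPM. The summed neutrophil markers had medians of 1184, 4558 and 993.3 CPM on these dates. On 9 April the 3 libraries titled male were higher than the 1 titled female for Cxcl2, Cxcl10, Cxcl16 and Cxcr2, and the female library had a neutrophil sum of 1135 CPM. Cxcl9 and Cxcl12 differed little between the dates, with medians of 42.1, 51.9 and 42.4 CPM for Cxcl9 and 5.91, 7.66 and 7.34 CPM for Cxcl12. Of the saline libraries, the 4 dated 3 April had more Cxcl12 (median 90.7 CPM) and less Cxcl16 (56.2 CPM) than the 6 dated 31 March (23.0 and 98.9 CPM). Leaving out the libraries of each of the 6 dates in turn, all 7 members called with LPS were called each time. Their log2 fold changes then ran from 3.98 to 4.97 for Cxcl1, from 1.97 to 2.62 for Cxcl2, from 5.202 to 5.726 for Cxcl9, from 3.64 to 4.19 for Cxcl10, from -3.08 to -2.20 for Cxcl12, from 0.802 to 1.275 for Cxcl16 and from 2.34 to 2.90 for Cxcr2. No date held both treatments, so no value within a date can be had.

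**Figure D4:**
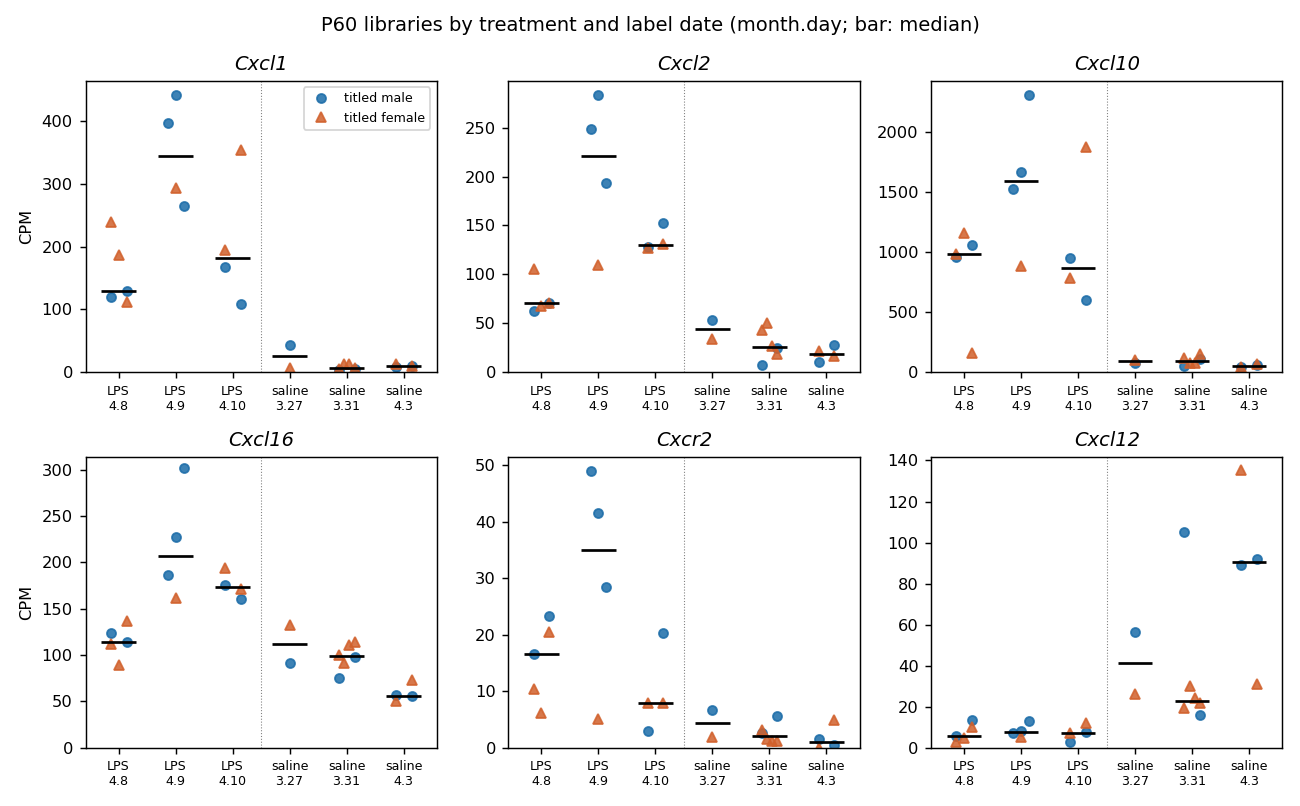
Level (y axis, CPM, linear from 0) of 6 genes in the 25 P60 libraries by treatment and by the date in the label (x axis, month.day), with circles for libraries titled male, triangles for libraries titled female and a bar at the median. The LPS libraries dated 9 April have the highest medians of Cxcl1, Cxcl2, Cxcl10, Cxcl16 and Cxcr2, and the saline libraries dated 3 April the highest median of Cxcl12, 90.7 CPM.

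No member passed a test of sex. Over the time course 0 of 7 passed for males against females, where 7 genes of the table did (0.0505%), and the largest log2 difference was 0.41 ± 0.23 for Cxcl1 (adjusted p = 0.756). Without M_P60_Sal 1 this value was 0.13. No gene of the table passed the test of sex by age with edgeR (0%), where 1723 had an unadjusted p under 0.05 and DESeq2 also called 0. For the difference between the sexes in the response to LPS, 0 of 8 members passed, where 0.883% of genes did. In the LPS libraries titled male Cxcl9 ran from 24.8 to 54.8 CPM, and in those titled female from 4.111 to 72.1 CPM, with saline levels of up to 0.929 CPM in males and up to 5.69 CPM in females. Its log2 fold change was 6.31 ± 0.63 in males and 4.62 ± 0.52 in females, and the difference of 1.69 ± 0.91 did not pass (adjusted p = 0.284). Cxcl2 gave 2.84 ± 0.43 in males and 1.78 ± 0.38 in females, a difference of 1.06 ± 0.55 (adjusted p = 0.266). Cxcl16 passed in males (1.41 ± 0.25, adjusted p = 0.000168) and not in females (0.62 ± 0.23, adjusted p = 0.159), and the difference of 0.79 ± 0.34 did not pass (adjusted p = 0.181). With each sex on its own, 7 of 8 members passed in males, where 19.5% of genes did, and 6 of 8 in females, where 5.06% did. These counts include Cxcl9 and Cxcr2, which entered through the LPS group. A p that misses the threshold does not show that the sexes responded alike.

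**Figure D5:**
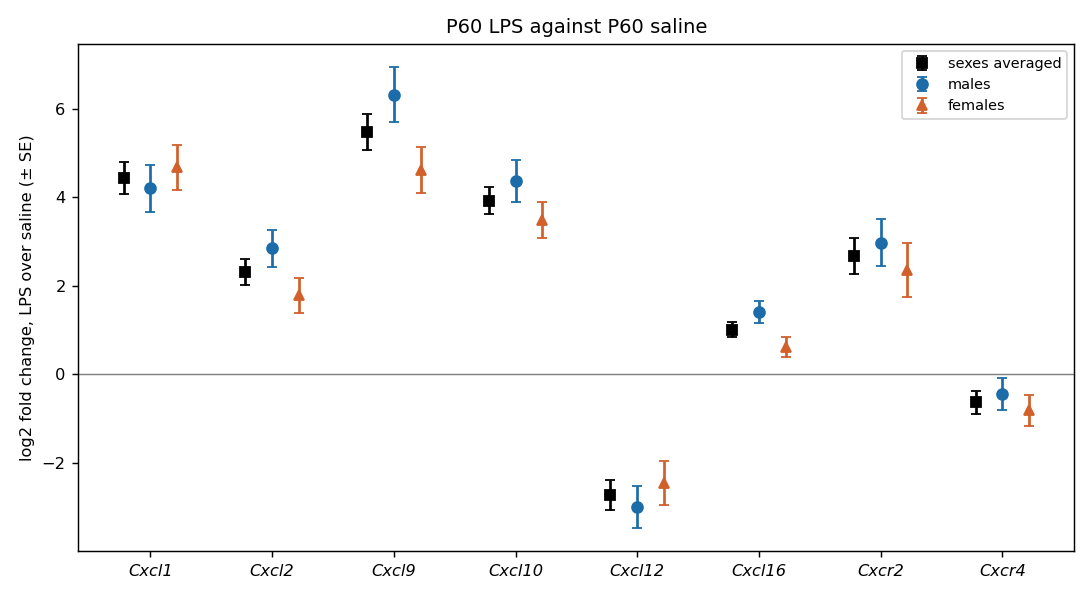
Log2 fold change with LPS over saline at P60 (y axis, ± SE) of the 8 members tested (x axis), as squares for the mean of the sexes, circles for males and triangles for females. Cxcl1, Cxcl2, Cxcl9, Cxcl10, Cxcl16 and Cxcr2 lie above 0, Cxcl12 and Cxcr4 below it, and the values of the sexes differ most for Cxcl9 (6.31 in males, 4.62 in females).

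Of 14 other genes of the CXC family, 5 could be tested across development and 4 with LPS. The transcript of Cxcl11 rose with LPS by 4.85 ± 0.38 (adjusted p = 1.4e-10), with 13.4 to 82.7 CPM in LPS libraries, against 0 to 6.29 CPM in saline libraries. Whether these animals make a working Cxcl11 protein was not measured. Ackr1, listed as Darc, an atypical receptor of venular endothelium and red cells that binds many chemokines, rose by 6.00 ± 0.68 (adjusted p = 1.42e-07). It ran from 80.4 through a median of 273.1 to 1008 CPM with LPS, against 0, 1.70 and 69.6 CPM with saline. Cxcl11 and Ackr1 passed the filter on low counts in this fit through the LPS libraries, where they are high, so the filter favoured a rise. Ackr3, listed as Cxcr7, the uptake receptor of Cxcl12, gave -0.31 ± 0.25 (adjusted p = 0.46), and Pf4, a platelet and border macrophage chemokine, -0.61 ± 0.37 (adjusted p = 0.314). Across development Pf4 fell at P4 against E18 by 1.62 ± 0.40 and Cxcl3 by 2.14 ± 0.50 on the log2 scale. The partner receptors had few counts. Cxcr3, which binds Cxcl9 and Cxcl10, had 3 counts with LPS and 25 with saline, Cxcr6, which binds Cxcl16, had 16 and 35, and Cxcr5 had 43 and 31. Cxcr1, the neighbour of Cxcr2, had 0 counts in all 60 libraries. Defining T and B cell markers were also near 0 with LPS, with Cd3e at 0 and Cd3d, Cd79a and Ms4a1 at 3 counts or fewer, and the sum of the 9 markers ran from 5.2 to 25.2 CPM with LPS, against 10.2 to 38.7 CPM with saline.

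The CC and CX3C chemokines gave 8 of 10 tested higher with LPS and none lower, with a median of 1.16 on the log2 scale. Of all genes 10.5% were higher and 3.95% lower. A chemokine that passed the filter on low counts through the LPS group was favoured to rise. The T cell attractant Ccl5 rose by 4.09 ± 0.45 and Cx3cl1, the ligand of the microglial receptor Cx3cr1, by 1.59 ± 0.19. For Cx3cl1 the value was 0.46 ± 0.27 in males (adjusted p = 0.234) and 2.73 ± 0.27 in females. The difference of -2.28 ± 0.38 passed with sex by title (adjusted p = 0.0181), whereas no gene passed for it with sex by the characteristic. Of 26 genes of chemokine receptor signalling, 25 were tested with LPS and 3 rose, Pik3r5, a kinase subunit, by 1.33 ± 0.23, Rac2 by 0.69 ± 0.19 and Gnai3 by 0.46 ± 0.12, a share near the 10.5% of all genes that rose. At P4 against E18 17 of 26 rose and 3 fell, where 25.5% of all genes rose and 22.7% fell.

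The genes most like each member were found by the correlation of log2 CPM over all 60 libraries among 13799 genes. The libraries share stage, treatment and date, so these values describe the pattern and carry no test. Cxcl1 was closest to Darc (r = 0.921) and to Sele, the endothelial E-selectin (0.909), and within stages these were 0.689 and 0.714. Cxcl2 was closest to Mefv, an inflammasome gene (0.801), and Tnfaip2 (0.800). Cxcl9 was closest to Ifit3 (0.950) and Cxcl10 to Myd88, an adaptor of Toll-like receptors (0.917). Cxcl12 was closest to Sox17, an endothelial transcription factor (0.833), and Prom1 (0.818). Cxcl16 was closest to Birc3 (0.932) and to Il1a, the gene of interleukin-1 alpha (0.926), and kept 0.769 and 0.811 within stages. Cxcr2 was closest to Mmp8, a neutrophil collagenase (0.782), and Cxcr4 to Ttyh2 (0.811) and Igf1 (0.807), which within stages were 0.250 and 0.190. Among the members themselves the highest value was 0.899, between Cxcl9 and Cxcl10, and Cxcl1 and Cxcl2 had 0.831, while Cxcl9 and Cxcl12 had -0.834.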

How the data were processed

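The authors deposited a table of raw read counts, whole numbers per transcript row for 60 libraries. Per the labels' protocols, RNA was extracted with Trizol and made into stranded polyA libraries. CASAVA 1.8.2, edgeR and the build mm9 are named in the submitters' processing notes. Which aligner and counting tool made the counts, and with which strand setting, is not stated in those notes. The 28644 rows hold 22869 gene symbols. The row the table marks was used for 21988 symbols, and the row with the highest total for 881, Cxcl1 among them.

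Counts were tested with edgeR 4.0.16 (quasi-likelihood F test, TMM scaling, filterByExpr, R 4.3.3), in 1 fit over the 47 developmental libraries and 1 over the 25 P60 libraries, with group as stage, treatment and titled sex. P-values were adjusted by Benjamini-Hochberg over all genes of a fit and called under 0.05. The scripts were tested on simulated data. Alternatives were RLE scaling, no filter, summed rows, sex by characteristic, a replicate block, DESeq2 1.42.0, no libraries over 10% Ttr, and each date or library left out (P14 libraries were not). Replicate numbers did not pair the stages or treatments, but at P4 (4 of 4 pairs, r = 0.350 to 0.430) and P14 (10 of 10 pairs, r = -0.173 to 0.432) same-numbered males and females share a date.

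Per-kilobase levels used transcript lengths from GENCODE vM21, matched by accession. Likeness used log2 CPM with a prior count of 2. Floors are 3 counts and cover counting error only. The text names the 9 members, the other CXC family genes and up to 4 genes of each pathway or marker list. 1 pathway list and 1 sequence pattern are not reported here. Members and lists were chosen with earlier results of these data known.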

Additional observations from a re-analysis of the deposited data

Results flagged for a closer look

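Each member was looked at in each group of stage, treatment and sex with 4 to 10 libraries, and in 18 of 78 such combinations the highest library stood far from the others. Chance sets apart about 1 in 20 where values vary smoothly. That rate does not hold for counts near 0, where 1 count among zeros is always set apart (4 of the 18), so no excess over chance is read from the number. Cxcl1 was 57.14 CPM in M_P14 2 and 43.2 CPM in M_P60_Sal 1. Cxcl2 was 90.4 CPM in F_P14 7 and 63.52 CPM in M_P4 2. Cxcl9 was 4.173 CPM in M_E18 1 and 0.9052 CPM in M_P14 9, and Cxcl12 was 135.2 CPM in F_P60_Sal 7.

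Cxcl16 stood apart in M_P14 1 at 176.7 CPM, F_P14 2 at 128.6 CPM, F_P4 2 at 70.93 CPM and M_P4 2 at 57.94 CPM. Cxcr2 did so in F_P60_LPS 3 at 20.56 CPM and Cxcr4 in F_P4 4 at 86 CPM. For Cxcl13 the libraries were F_P60_Sal 5 at 4.554 CPM, M_P60_LPS 2 at 3.546 CPM, M_P14 9 at 0.9052 CPM, F_P14 3 at 0.4406 CPM and M_P60_Sal 5 at 0.4209 CPM, each resting on a few counts.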

How the results depend on the processing

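Under the alternatives run, counts of genes and members called in the 8 comparisons stayed within 1.5 times their value, except in the tests of sex. Where a member was called in the first fit or in an alternative, its sign was the same in both. The signs of results called in neither were not compared. Males against females over the time course gave 3 genes in place of 7 with sex by the characteristic. Sex by age gave 0 to 486 genes when single libraries were left out, against 0 with all, and 486 came without M_E18 2. Sex by LPS, with 93 genes, gave 0 with sex by the characteristic and 601 with DESeq2. It gave 53, 2 and 0 without the LPS libraries dated 8, 9 and 10 April, 0 without the saline libraries dated 27 March, 0 without those dated 31 March, and 0 to 482 when single libraries were left out. No member was called in a test of sex with all libraries. The cause of these moves was not tested.

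With the replicate block, P14 against P4 called 4596 genes and 3 members in place of 5744 and 4, since Cxcl1 was no longer called. P60 LPS against saline called 1319 genes, and the same 7 members. Between the compared stages and treatments same-numbered libraries never shared a date, and their deviations correlated from -0.491 to 0.403, so they share only a number. Same-numbered males and females at P4 and P14 do share a date, and with the block males against females gave 7 genes, sex by age 0, and no member in either. The 3 pairs of females at P4 and E18 ran from 0.119 to 0.403, and the 4 pairs of males from -0.057 to 0.284. Under RLE scaling 37.5% of the calls at P14 against P4 were upward. Depth limits Cxcl9 before LPS, Cxcl13 and Cxcr2 most, since they rest on few counts.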
